A study of Rattus norvegicus with 96 samples.

Results

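Icoslg, Rasgrp2, Stk32c, Eif5b, Ankrd11, Atrx and Mon2 are 7 genes selected on their signal in the dorsolateral bed nucleus of the stria terminalis (dlBNST), which differed between alcohol dependent and alcohol naive rats. They are 7 of the 9 genes, out of 8715 tested there, that passed limma at an adjusted p under 0.05, and 7 of the 14218 genes that a probe set on the array names alone. The 3 with lower signal in dependent rats were Icoslg, Rasgrp2 and Stk32c, and the 4 with higher signal were Eif5b, Ankrd11, Atrx and Mon2. They were followed here into 7 further regions that had no part in choosing them: the ventral BNST (vBNST), the central nucleus (CeA) and basolateral nucleus (BLA) of the amygdala, the core (NAcC) and shell (NAcSh) of the nucleus accumbens, the ventral tegmental area (VTA) and the medial prefrontal cortex (mPFC). Of 19 probe sets that name a member alone, the one with the highest mean stood for each gene, and all 7 passed the filter on low values in all 8 regions.

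Dependent rats self-administered 10% alcohol for 4 weeks, then breathed alcohol vapor intermittently for 4 weeks, were tested again during acute withdrawal and were killed 3 weeks after vapor ended. Non-dependent rats followed the same schedule with no vapor, and naive rats of the same age had no alcohol. The study describes its vapor procedure in adult male Wistar rats, and the labels of the arrays give neither strain nor sex. Each group had 4 arrays per region, 96 in all, which the study assigns to 4 rats per group, so that by that account arrays of the 8 regions come from the same animals. The labels do not say which arrays share a rat. No gene was modified. The groups differ in alcohol history, and among rats that drank, vapor and the drinking that followed it cannot be told apart.

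Of the 96 arrays, 4 stood apart from the rest and were left out: CeA non-dependent replicate 2, BLA non-dependent replicate 3, VTA non-dependent replicate 2 and vBNST dependent replicate 1. The difference between the 3' and 5' control probe sets, a sign of RNA quality, was 1.35 in the CeA array, 6.09 in the VTA array and 6.99 in the vBNST array, against 3.96 to 5.38 in the 92 arrays used, while the BLA array, at 4.40, lay within that range. For all 4 the highest correlation with any other array was 0.34 to 0.96, against 0.989 to 0.996. Atrx read 5.13 in the CeA array, 4.71 in the VTA array, 7.38 in the vBNST array and 9.55 in the BLA array on the log2 signal scale. Regional markers followed the labels in part in naive rats. Slc6a3, the dopamine transporter, averaged 10.43 in the VTA. Slc17a7, the glutamate transporter of cortical neurons, averaged 11.75 in the mPFC, and Drd1 11.46 in the NAcC. Dopamine neuron markers as a list averaged 7.83 in the VTA and 3.73 in the vBNST. BNST and central amygdala markers averaged 7.88 in the dlBNST and 7.92 in the CeA, and cortical glutamatergic markers reached 5.36 in a naive NAcSh array. In the dlBNST the neuropeptide genes Crh and Nts averaged 8.24 and 10.06, while Isl1 stood at 3.49, below the filter of 4.

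The BNST is part of the extended amygdala, which links stress and reward circuits and is a site where alcohol withdrawal is known to act. The 7 genes share no single pathway. Icoslg is a B7-family ligand of the T-cell costimulatory receptor ICOS. Rasgrp2 (CalDAG-GEFI) is an exchange factor that loads the small GTPase Rap1 in response to calcium and diacylglycerol, and is known in striatal neurons and platelets. Stk32c belongs to the AGC group of serine/threonine kinases. Eif5b is the GTPase that joins the ribosomal subunits at the end of translation initiation. Ankrd11 is an ankyrin-repeat chromatin regulator that binds the histone deacetylase HDAC3. Atrx is a SNF2-family chromatin remodeler that, with DAXX, deposits histone H3.3 in repeats and telomeres. Mon2 works in traffic between endosomes and the Golgi. In a tissue punch, fewer cells of a type and less RNA per cell cannot be told apart.

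Promoter sequence is shown for 4 members, Atrx and Eif5b, whose signal was higher over the 7 further regions, Ankrd11, which came next in that comparison, and Rasgrp2, which was lower in the dlBNST. All 7 members matched the RefSeq promoter windows (build GRCr8), with 8 windows between them because Icoslg has 2 starts. Each window holds 250 bases before and 50 after the annotated start, written 5′ to 3′ on the strand of the gene, and capitals mark any of 4 motifs searched on both strands with overlaps counted: the GC box (GGGCGG or CCGCCC), the CCAAT box (CCAAT or ATTGG), the CRE core (TGACG or CGTCA) and the glucocorticoid receptor core motif (AGAACA or TGTTCT).
Atrx, chrX:75062831-75063130, minus strand: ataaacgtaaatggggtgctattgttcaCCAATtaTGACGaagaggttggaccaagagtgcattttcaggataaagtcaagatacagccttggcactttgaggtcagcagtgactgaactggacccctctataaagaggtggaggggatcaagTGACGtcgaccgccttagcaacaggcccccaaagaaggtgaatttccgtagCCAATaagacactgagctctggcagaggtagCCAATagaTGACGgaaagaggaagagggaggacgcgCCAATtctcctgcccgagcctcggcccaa
Eif5b, chr9:47718456-47718755, plus strand: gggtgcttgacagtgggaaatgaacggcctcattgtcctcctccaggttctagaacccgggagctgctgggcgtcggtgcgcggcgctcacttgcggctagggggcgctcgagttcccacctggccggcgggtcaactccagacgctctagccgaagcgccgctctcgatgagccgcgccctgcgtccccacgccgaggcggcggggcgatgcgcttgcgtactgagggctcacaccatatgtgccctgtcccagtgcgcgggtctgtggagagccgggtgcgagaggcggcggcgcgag
Ankrd11, chr19:68007442-68007741, minus strand: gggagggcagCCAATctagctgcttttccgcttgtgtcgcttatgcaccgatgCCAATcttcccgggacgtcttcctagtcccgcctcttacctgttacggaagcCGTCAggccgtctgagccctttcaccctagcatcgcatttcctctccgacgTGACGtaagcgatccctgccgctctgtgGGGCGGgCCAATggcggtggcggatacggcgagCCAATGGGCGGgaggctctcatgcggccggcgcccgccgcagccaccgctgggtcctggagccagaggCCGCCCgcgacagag
Rasgrp2, chr1:213136484-213136783, plus strand: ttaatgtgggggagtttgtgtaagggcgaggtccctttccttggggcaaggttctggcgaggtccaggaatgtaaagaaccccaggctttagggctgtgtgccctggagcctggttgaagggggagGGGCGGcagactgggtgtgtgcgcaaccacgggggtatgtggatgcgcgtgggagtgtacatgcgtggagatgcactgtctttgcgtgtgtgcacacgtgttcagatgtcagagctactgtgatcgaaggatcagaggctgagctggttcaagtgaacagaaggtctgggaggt

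The Atrx window held 4 CCAAT boxes and 3 CRE cores, and the Ankrd11 window 3 GC boxes, 4 CCAAT boxes and 2 CRE cores. The Eif5b window held none of the 4 motifs, with 69.33% G and C, against a median of 51.667% over 33469 rat windows. Rasgrp2 had 1 GC box. Its window lies inside the annotated gene (chr1:213135034-213152246), so it is not at the outermost start of the gene. Among the windows not printed, Stk32c (chr1:203411276-203411575) held 4 GC boxes, Mon2 (chr7:60613418-60613717) 2 GC boxes, 1 CCAAT box and 1 CRE core, and each Icoslg window (chr20:10610316-10610615 and chr20:10610287-10610586) 1 GC box and 2 CCAAT boxes that overlap. The GC box occurs in 33.1% of all windows, the CCAAT box in 37.5% and the CRE core in 21.2%. The glucocorticoid receptor core motif, in 20.7% of all windows, was in none of the 8. These matches describe letters and were not tested as binding sites.

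In the dlBNST, Icoslg had the largest of the lower values among the 7 genes. Its log2 signal was 4.29, 4.72, 3.98 and 4.41 in the 4 dependent rats, 5.34, 5.03, 5.30 and 4.89 in non-dependent rats and 5.59, 5.92, 5.62 and 5.38 in naive rats. No dependent array reached any other, and the non-dependent arrays lay below all naive ones, as separate as those of 5.06% of all genes there. Icoslg was read near the floor. Dependent replicate 3 lay below the filter of 4, and the median of all probe sets ran 3.81 to 3.94 over the 92 arrays used. The dependent minus naive difference was -1.28 ± 0.17 (log2, limma SE), a 2.42-fold lower signal. Because this contrast chose the genes, its values are given without a test, here and for the other 6.

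Rasgrp2, the Rap1 exchange factor, read 6.53, 6.30, 6.15 and 6.40 in dependent dlBNST, 6.81, 6.89, 6.99 and 7.38 in non-dependent dlBNST and 7.31, 7.25, 7.32 and 7.21 in naive dlBNST. The dependent arrays lay below all others, while one non-dependent array was above every naive array. The difference was -0.93 ± 0.13, or 1.91-fold lower. The kinase gene Stk32c read 9.39, 9.24, 9.40 and 9.20 in dependent rats, 9.64, 9.29, 9.47 and 9.60 in non-dependent rats and 9.91, 9.90, 10.12 and 9.94 in naive rats. For Stk32c both alcohol groups lay below the naive arrays and overlapped each other. Its difference of -0.66 ± 0.10, 1.58-fold lower, was the smallest of the 7.

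Eif5b, the subunit-joining GTPase, had the largest of the higher values. It read 10.06, 10.26, 10.07 and 9.92 in dependent rats, 9.20, 9.50, 9.19 and 8.64 in non-dependent rats and 8.94, 8.47, 9.03 and 8.90 in naive rats. The dependent arrays stood above all 8 others, and 3 of the 4 non-dependent arrays stood above the naive ones. The difference was 1.24 ± 0.17, or 2.37-fold higher. Ankrd11, the HDAC3-binding regulator, read 8.03, 8.50, 8.51 and 8.44 in dependent rats, 7.89, 7.71, 7.97 and 7.34 in non-dependent rats and 7.39, 7.44, 7.45 and 7.61 in naive rats. Its dependent replicate 1 was lower than the other 3, and all 4 stood above the rest. Its difference was 0.90 ± 0.15, 1.86-fold.

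Atrx, the chromatin remodeler, read 10.12, 10.55, 10.13 and 10.27 in dependent rats, 9.86, 9.41, 9.63 and 9.82 in non-dependent rats and 9.46, 9.43, 9.54 and 9.52 in naive rats. The naive arrays were close together, and the dependent arrays lay above every other array. The difference was 0.78 ± 0.12, 1.72-fold. Mon2, of the endosome to Golgi route, read 5.73, 5.75, 6.17 and 6.01 in dependent rats, 5.22, 5.35, 5.46 and 5.62 in non-dependent rats and 5.01, 5.12, 5.30 and 5.18 in naive rats. Its dependent arrays again stood above the rest, with a difference of 0.76 ± 0.13, 1.70-fold.

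**Figure D1:**
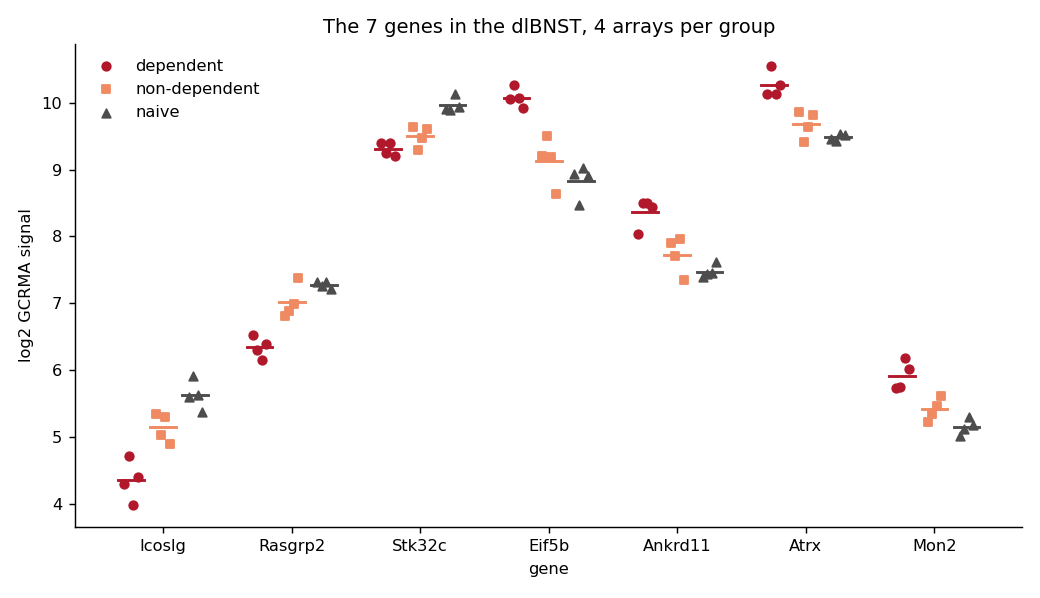
Log2 signal (vertical axis) of the 7 genes (horizontal axis) in the dlBNST, with 1 point per array and a line at the mean of 4 arrays for dependent, non-dependent and naive rats. For every gene the 4 dependent arrays lie apart from the 4 naive arrays, below them for Icoslg, Rasgrp2 and Stk32c and above them for the other 4.

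Dependent and naive arrays did not overlap for any of the 7 genes, as they did not for 10.3% of all genes tested in the dlBNST, and the share of genes called was 0.103%. Nothing is read from either count, since the rule used this contrast. Without each of the 12 arrays in turn, the dependent minus naive difference ranged over -1.40 to -1.15 for Icoslg, -0.99 to -0.87 for Rasgrp2, -0.69 to -0.61 for Stk32c, 1.12 to 1.31 for Eif5b, 0.85 to 1.01 for Ankrd11, 0.69 to 0.83 for Atrx and 0.68 to 0.83 for Mon2. The other 2 genes past the threshold were Npy1r, a neuropeptide Y receptor, at -1.27 ± 0.18, and Zfp512, a zinc finger gene, at -0.64 ± 0.099. The members just inside the threshold were Ankrd11 and Mon2, each with an adjusted value of 0.0407. Just outside stood Nsrp1, a splicing regulator, at 0.69 ± 0.12 and 0.0615, and Upf3a, a nonsense-mediated decay factor, at -0.70 ± 0.12 and 0.0620.

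Non-dependent rats had dlBNST means between those of dependent and naive rats for all 7 genes. The non-dependent minus naive difference was -0.48 ± 0.17 for Icoslg and -0.47 ± 0.10 for Stk32c, and ran from 0.19 for Atrx to 0.30 for Eif5b among the 4 that were higher, with Ankrd11 at 0.25 and Mon2 at 0.26. Rasgrp2 stood at -0.26 ± 0.13. The dependent minus non-dependent difference was largest for Eif5b at 0.94 ± 0.17 and smallest for Stk32c at -0.19 ± 0.10. Dependent and non-dependent arrays were apart for every member but Stk32c, as for 2.58% of all genes there. Both contrasts share arrays with the one that chose the genes, so they carry no test either.

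In the same dlBNST arrays, the mean level of every cell type list overlapped between dependent and naive rats. The 7 astrocyte markers measured averaged 9.84 to 9.92 per array in dependent rats and 9.65 to 9.94 in naive rats, the 7 oligodendrocyte markers 8.49 to 8.88 and 8.51 to 9.17, and the 8 microglia markers 5.59 to 5.99 and 5.67 to 5.86. The 5 markers of GABA neurons, the main cell type of this nucleus, ran 8.92 to 9.26 in dependent and 9.04 to 9.30 in naive rats. The 7 T and B cell markers averaged 2.85 to 2.91 and 2.89 to 2.97, a mean below the filter in every array. Those of T cells bear on the cells that carry the receptor of Icoslg, and among them Cd3e averaged 4.05 in naive rats, just above the filter. The 6 markers of medium spiny neurons ran 6.15 to 6.26 in dependent, 5.95 to 6.34 in non-dependent and 5.73 to 6.18 in naive rats, and the 8 endothelial and mural markers 5.43 to 5.81, 5.76 to 6.14 and 5.57 to 5.93 in the same order. GABA neuron markers were 8.95 to 9.03 in non-dependent rats, below all naive arrays. Their part in the values of the 7 genes was not tested.

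Outside the dlBNST, no member passed the adjusted threshold in any single region. Each of the 49 pairs of gene and region was tested with limma among 8445 to 8989 genes, and for dependent against naive rats 0 of 49 had an adjusted p under 0.05, where 0 of all genes were called in 6 regions and 0.0556% in the mPFC. Without 1 replicate that count over all genes ran 0 to 602 in the mPFC, 0 to 49 in the VTA and 0 to 21 in the vBNST, the highest without dependent replicate 3, dependent replicate 3 and non-dependent replicate 1. At an unadjusted p under 0.05 there were 7, of which 6 were higher and 1 lower in dependent rats. The share of all genes at that level was 15% (vBNST), 7.23% (CeA), 5.94% (BLA), 8.92% (NAcC), 12.2% (NAcSh), 8.43% (VTA) and 17.1% (mPFC).

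Atrx carried the largest of these 49 differences. In the VTA, where the dopamine neurons lie, it read 8.84, 9.37, 9.45 and 9.26 in dependent rats, 7.98, 8.18 and 8.79 in the 3 non-dependent rats used and 8.05, 8.09, 8.75 and 8.11 in naive rats. All dependent arrays lay above all others, with naive replicate 3 close below the lowest of them. The difference was 0.98 ± 0.22 (adjusted p = 0.340), and 3.72% of all VTA genes had dependent and naive arrays that did not overlap. In the mPFC it read 10.35, 10.58, 10.18 and 10.46 in dependent rats, 10.33, 9.86, 9.67 and 10.15 in non-dependent rats and 9.92, 10.09, 9.62 and 8.80 in naive rats. There the naive arrays were spread widely, with replicate 4 lowest, and the difference was 0.78 ± 0.24 (adjusted p = 0.151). In the CeA, NAcSh, BLA and vBNST it was 0.22 ± 0.12, 0.17 ± 0.15, 0.15 ± 0.12 and 0.14 ± 0.21, and in the NAcC -0.23 ± 0.18. Without 1 replicate the difference ran 0.90 to 1.14 in the VTA and 0.51 to 0.94 in the mPFC, lowest there without naive replicate 4, and with the mean of the 6 probe sets the VTA gave 0.47. The 95% interval ran over -0.029 to 0.48 in the CeA and -0.61 to 0.15 in the NAcC.

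Eif5b was next. In the vBNST it read 8.92, 9.21 and 9.09 in the 3 dependent rats used, 9.21, 9.38, 7.96 and 8.42 in non-dependent rats and 8.08, 7.94, 8.50 and 8.56 in naive rats. Dependent arrays lay above the naive ones, as for 13.1% of all vBNST genes, with a difference of 0.80 ± 0.29 (adjusted p = 0.232). In the mPFC it read 9.71, 9.87, 9.34 and 9.63 in dependent rats, 9.55, 9.46, 9.52 and 9.81 in non-dependent rats and 9.30, 9.22, 9.14 and 8.54 in naive rats. Both alcohol groups stood above the naive arrays in the mPFC, where 7.16% of genes had dependent and naive arrays apart. The dependent minus naive difference there was 0.59 ± 0.17 (adjusted p = 0.133), the lowest adjusted p of the 49. In the NAcSh it was 0.57 ± 0.28, in the VTA 0.28 ± 0.23 and in the BLA 0.17 ± 0.17, while the NAcC and CeA stood at 0.013 ± 0.23 and -0.13 ± 0.16. Without 1 replicate the Eif5b difference ran 0.27 to 0.79 in the NAcSh, 0.11 to 0.44 in the VTA and 0.027 to 0.25 in the BLA.

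Ankrd11 had its largest difference of the 7 in the NAcSh. It read 8.15, 8.31, 8.80 and 8.74 in dependent rats, 8.16, 8.59, 8.32 and 7.95 in non-dependent rats and 7.94, 8.03, 7.88 and 7.96 in naive rats. Dependent and naive arrays did not overlap, as for 6.01% of NAcSh genes, and the difference was 0.55 ± 0.17 (adjusted p = 0.269). The next largest was 0.43 ± 0.20 in the vBNST, and the other 5 lay between -0.019 in the NAcC and 0.18 in the BLA. Mon2, the largest of whose 7 differences was 0.28 ± 0.14 in the mPFC, ran from -0.14 in the VTA to 0.10 in the NAcC elsewhere.

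Stk32c had its lowest difference in the NAcSh and its highest in the VTA, and neither passed. In the NAcSh it read 9.33, 8.98, 8.81 and 8.55 in dependent rats, 9.81, 9.70, 9.50 and 9.40 in non-dependent rats and 9.60, 9.46, 9.52 and 9.39 in naive rats. The dependent arrays lay below all 8 others, and the difference from naive rats was -0.57 ± 0.16 (adjusted p = 0.262). In the VTA it read 7.99, 8.80, 7.97 and 8.04 in dependent rats, 7.72, 8.04 and 7.53 in non-dependent rats and 7.43, 7.58, 7.30 and 8.03 in naive rats. Here dependent replicate 2 stood far above the others and the groups overlapped, with a difference of 0.61 ± 0.22 (adjusted p = 0.547). The mPFC stood at 0.33 ± 0.26, and the vBNST, BLA, CeA and NAcC between -0.076 and 0.013.

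Icoslg, the ICOS ligand, was lowest relative to naive rats in the mPFC at -0.56 ± 0.26 (adjusted p = 0.292) and in the BLA at -0.47 ± 0.24 (adjusted p = 0.852). In the mPFC it read 4.97, 4.46, 4.80 and 5.23 in dependent rats, 5.23, 4.73, 5.05 and 4.56 in non-dependent rats and 5.25, 4.71, 5.77 and 5.99 in naive rats, and the groups overlapped. In the NAcC and NAcSh it stood at 0.18 and 0.24, on the other side of 0, with naive means of 4.09 and 4.09, close to the filter of 4. Rasgrp2 had its lowest difference, -0.54 ± 0.33 (adjusted p = 0.674), in the NAcC, where its signal was highest. Without 1 replicate it ran -0.88 to -0.20, the ends without dependent replicates 3 and 2. There it read 7.73, 6.64, 8.69 and 7.59 in dependent rats, 8.92, 8.69, 8.17 and 8.47 in non-dependent rats and 8.02, 7.82, 8.46 and 8.50 in naive rats. Dependent replicate 2 lay below the other 11 arrays, replicates 1 and 4 also lay below the naive arrays, and replicate 3 above them. In the vBNST, VTA and CeA Rasgrp2 was 0.27, 0.26 and 0.14 relative to naive rats. Its dependent mean lay below the naive mean in the NAcSh (6.36 and 6.62), the BLA (4.45 and 4.66) and the mPFC (5.90 and 6.08).

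**Figure D2:**
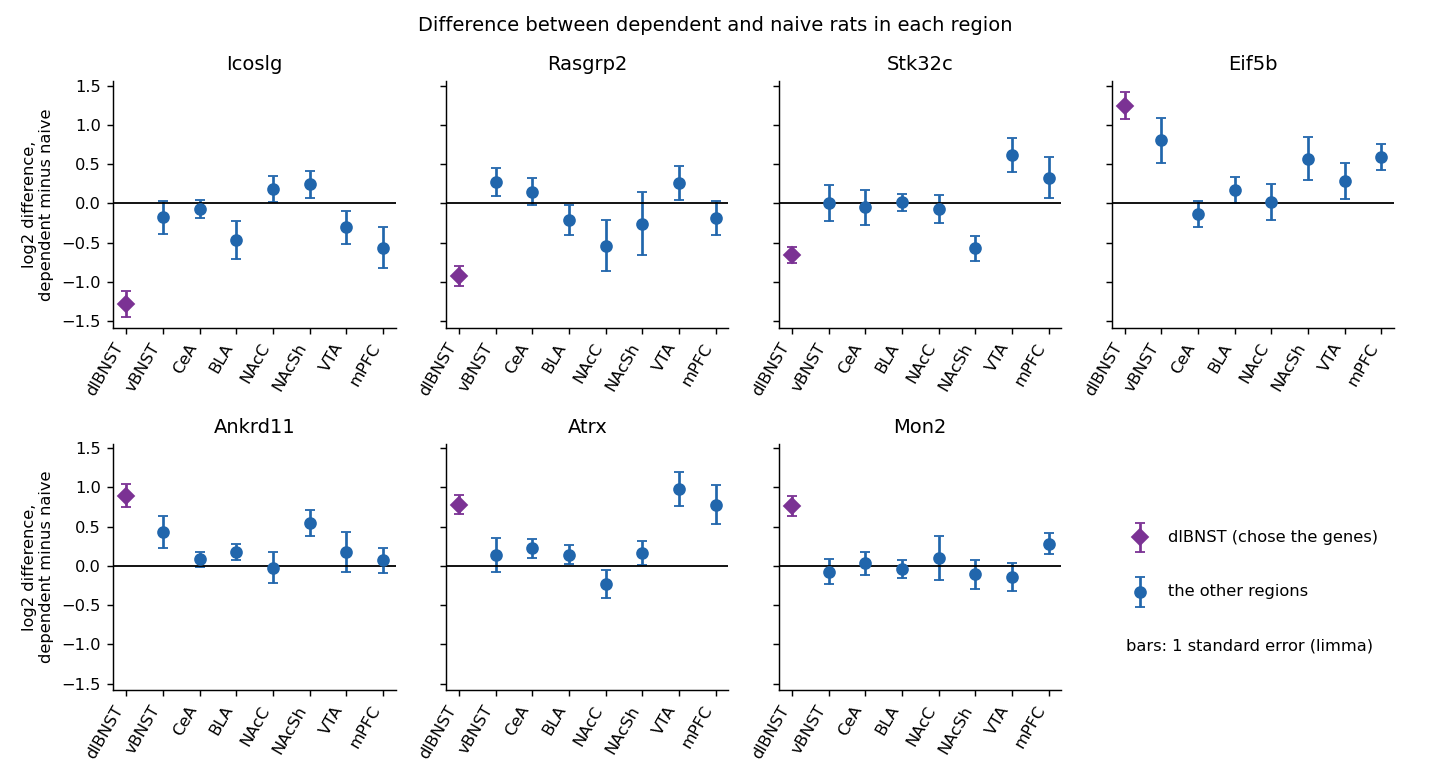
Dependent minus naive difference in log2 signal for each of the 7 genes in the 8 regions, with bars of 1 standard error from limma. The dlBNST points chose the genes, and among the other 7 regions Atrx reaches 0.98 in the VTA.

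Counted by sign, 33 of the 49 differences outside the dlBNST had the sign of the dlBNST. This was 6 of 7 regions for Atrx, Eif5b and Ankrd11, 5 for Icoslg, 4 for Rasgrp2 and 3 for Stk32c and Mon2. The 3 genes with 6 regions were all higher in dependent rats in the dlBNST. Over all genes tested, the sign matched in 52.9% (BLA) to 65.4% (vBNST), and regions share rats, so the count is a description.

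Quality and cell type markers were uneven between groups in some of these regions. In the NAcSh, where Ankrd11 and Stk32c stood apart, the 3' minus 5' control difference was 4.75 ± 0.37 in dependent rats, 4.97 ± 0.098 in non-dependent rats and 4.24 ± 0.12 in naive rats (SD), and the 6 markers of medium spiny neurons ran 8.49 to 9.36 in dependent and 7.52 to 9.01 in naive arrays. Markers of cortical glutamatergic neurons there reached 4.58 in one dependent and 5.36 in one naive array, from lowest values of 3.06 and 2.96. In the mPFC, where Atrx and Eif5b were higher, astrocyte markers ran 10.15 to 10.28 in dependent and 10.37 to 10.64 in naive arrays, and oligodendrocyte markers 8.16 to 8.79 and 8.61 to 8.92. In the VTA, dopamine neuron markers ran 7.87 to 8.41 in dependent and 7.21 to 8.41 in naive arrays, with overlapping quality values of 4.90 ± 0.15 and 4.79 ± 0.14. In the vBNST, where Eif5b stood apart, medium spiny markers ran 4.83 to 5.01 in dependent and 4.47 to 4.62 in naive arrays and endothelial and mural markers 5.78 to 5.90 and 5.37 to 5.71, in both without overlap. In the CeA the dependent and naive arrays were apart for oligodendrocyte markers (8.06 to 8.35 and 8.59 to 8.73), microglia markers (5.42 to 5.63 and 5.72 to 5.82) and medium spiny markers (5.90 to 6.34 and 5.59 to 5.82). No marker passed the adjusted threshold between dependent and naive rats in any region (limma, 0 of 321 tests, with 22 higher and 28 lower at an unadjusted p under 0.05). Their part in the differences of the 7 genes was not tested.

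Pooling the 7 regions that did not choose the genes gave 80 arrays, with region and group as additive terms. Atrx rose in dependent over naive rats by 0.32 ± 0.085 (adjusted p = 0.0154), and Eif5b by 0.32 ± 0.10 (adjusted p = 0.0410). These 2 of 7 members passed limma over 8761 genes, against 5.98% of all genes (2.12% higher and 3.86% lower). Ankrd11 was at 0.21 ± 0.070 (adjusted p = 0.0615), Icoslg at -0.16 ± 0.086 (adjusted p = 0.247) and Rasgrp2 at -0.084 ± 0.11 (adjusted p = 0.694). Stk32c and Mon2 stood near 0, with intervals of -0.14 to 0.22 and -0.13 to 0.15. The 95% interval was 0.15 to 0.49 for Atrx and 0.12 to 0.52 for Eif5b. The median of all genes was -0.033. By the study's account these arrays come from 4 rats per group, while the fit takes them as independent, so its p-values can be too small. By that account the same rats also gave the dlBNST arrays that chose the genes. The 7 regions are then not a separate set of animals, and a difference between the rats themselves could recur in them.

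The Atrx call held without any single one of the 80 arrays, with differences of 0.28 to 0.35 (adjusted p = 0.00596 to 0.0276). It was lost without the VTA (0.21, adjusted p = 0.121), without the mPFC (0.24, adjusted p = 0.0969) and without naive replicate 4 of all regions (0.25, adjusted p = 0.0940), and without both VTA and mPFC the difference was 0.088 (adjusted p = 0.565). With the 4 arrays put back it was 0.24 (adjusted p = 0.9999) and that of Eif5b 0.41 (adjusted p = 0.676). The Eif5b call was lost without 22 of the 80 single arrays (adjusted p = 0.0510 to 0.0689), and Ankrd11 passed without 6 of them (NAcC dependent replicate 2 and naive replicate 3, VTA dependent replicate 2 and naive replicate 4, and mPFC dependent replicates 2 and 3). The arrays whose absence lost Eif5b were vBNST dependent replicates 3 and 4 and naive replicates 1 and 2, CeA dependent replicate 1, BLA dependent replicate 2 and naive replicate 1, NAcC dependent replicate 4 and naive replicates 2 and 4, NAcSh dependent replicate 3 and naive replicates 1, 2 and 3, VTA dependent replicate 4 and naive replicates 2 and 3, and mPFC dependent replicates 1, 2 and 4 and naive replicates 3 and 4.

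Whether the dependent minus naive difference varied among the 7 regions was asked with an interaction term. Atrx passed (F = 4.63, adjusted p = 0.0395), as did 1.86% of all genes, and no other member did. Stk32c came next (F = 2.86, adjusted p = 0.185), and the other 5 had adjusted p of 0.364 to 0.903. Among the 21 pairs of regions for Atrx, each adjusted over all genes, only the NAcC and the mPFC differed past the threshold, by -1.01 ± 0.27 (NAcC minus mPFC, adjusted p = 0.0450). The NAcC and the VTA were farther apart, by -1.21 ± 0.27, with an adjusted p of 0.101, since p-values were adjusted over all genes within each pair. The interaction was lost without 16 of the 80 single arrays, namely vBNST dependent replicate 3, NAcC dependent replicate 2 and naive replicates 1, 3 and 4, NAcSh dependent replicate 4, VTA dependent replicates 2 and 4 and naive replicates 1, 2 and 4, and mPFC dependent replicates 1, 2 and 4 and naive replicates 3 and 4 (adjusted p = 0.0511 to 0.0864), and also with the mean of the probe sets of the gene (adjusted p = 0.596).

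**Figure D3:**
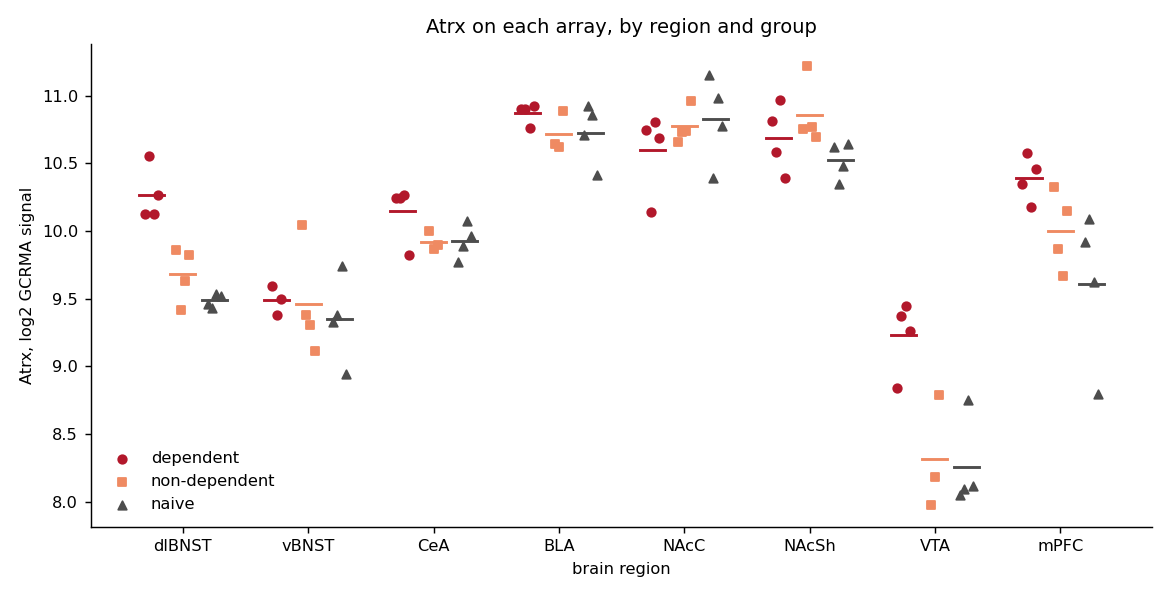
Log2 signal of Atrx in each array of the 8 regions, in dependent, non-dependent and naive rats, with a line at each group mean. The dependent arrays all stand above the naive arrays in the dlBNST, VTA and mPFC, and dependent and naive arrays overlap in the other 5 regions.

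Rats that drank without vapor were also set against naive rats. In single regions 0 of 49 values passed limma's adjusted threshold, with 5 at an unadjusted p under 0.05 and a lowest adjusted p of 0.143, that of Eif5b in the mPFC (0.54 ± 0.17). Of all genes, 0 passed in 6 regions and 0.0779% in the mPFC, and the share at an unadjusted p under 0.05 was 7.35% (vBNST), 6.81% (CeA), 6.28% (BLA), 6.5% (NAcC), 4.41% (NAcSh), 6.51% (VTA) and 17.7% (mPFC). Eif5b was at 0.68 ± 0.28 in the NAcSh and -0.52 ± 0.18 in the CeA (adjusted p = 0.951 and 0.691), and in both, as in the mPFC, the non-dependent and naive arrays did not overlap. Such separation occurred in 3.51% of NAcSh genes, 7.78% of CeA genes and 11.9% of mPFC genes. The others at that level were Rasgrp2 in the CeA at 0.47 ± 0.19 and Atrx in the NAcSh at 0.34 ± 0.15. Over 7 regions 0 of 7 members passed, against 0.982% of all genes, and 3 had an unadjusted p under 0.05, as did 13.7% of all genes: Rasgrp2 at 0.27 ± 0.11 (adjusted p = 0.237), Eif5b at 0.23 ± 0.10 (adjusted p = 0.290) and Ankrd11 at 0.18 ± 0.072 (adjusted p = 0.233).

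Between dependent and non-dependent rats, which differ in vapor, 0 of 49 values passed limma's adjusted threshold in single regions, as did 0 of all genes, and 4 had an unadjusted p under 0.05. Over all genes the VTA count was 0 to 155 without 1 replicate, the highest without dependent replicate 3, and 1153 with array weights. Of all genes, the share at that level was 5.09% (vBNST), 4.65% (CeA), 5.81% (BLA), 6.13% (NAcC), 8.16% (NAcSh), 15.3% (VTA) and 5.2% (mPFC). Atrx in the VTA was at 0.91 ± 0.23 (adjusted p = 0.147), where 14.9% of genes had the 2 groups apart. With the left-out VTA array, at 4.71, no member passed either. Stk32c in the NAcSh was at -0.68 ± 0.16 (adjusted p = 0.465), with the groups apart as for 5.35% of genes, Rasgrp2 in the NAcC at -0.90 ± 0.33 (adjusted p = 0.802) and Eif5b in the CeA at 0.39 ± 0.18 (adjusted p = 0.999). Over 7 regions 0 of 7 members passed, against 0.217% of all genes, and 2 had an unadjusted p under 0.05, against 10.4% of all genes, Rasgrp2 at -0.36 ± 0.11 (adjusted p = 0.209) and Atrx at 0.18 ± 0.087 (adjusted p = 0.436). The dependent arrays enter 2 of these comparisons and the naive arrays 2, so the comparisons are not independent of one another. For Rasgrp2 the means over 7 regions were 6.11 in dependent, 6.46 in non-dependent and 6.18 in naive rats, so that non-dependent rats were highest, unlike in the dlBNST.

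The array carries several probe sets for some of the genes, and their differences were not alike. For Eif5b in the dlBNST, the probe set used (1395237_at) gave 1.24 ± 0.17, 1396191_at gave 0.36 ± 0.15, and 1388947_at gave -0.25 ± 0.099. Over the 7 regions they gave 0.32 ± 0.10, 0.13 ± 0.050 and -0.14 ± 0.057, with adjusted p of 0.0356, 0.0987 and 0.127 among 11061 probe sets, of which 7.49% passed. Across the 92 arrays the first and the last had a Pearson r of -0.22. The Eif5b result is thus that of 1 of 3 probe sets, and the mean of the 3 gave 0.45 in the dlBNST and 0.10 (adjusted p = 0.0901) over 7 regions. Which probe sets read which part of the transcript was not tested, since the probe positions were not used here.

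Atrx has 6 probe sets. In the dlBNST all 6 were higher in dependent rats, from 0.11 ± 0.31 (1386683_at) to 1.06 ± 0.22 (1385006_at). Over the 7 regions 4 of the 6 passed: 1393798_at, the one used, at 0.32 ± 0.085 (adjusted p = 0.0127), 1389989_at at 0.36 ± 0.11 (0.0306), 1385006_at at 0.38 ± 0.12 (0.0459) and 1393596_at at 0.39 ± 0.13 (0.0431). The remaining pair, 1384742_at and 1386683_at, gave 0.16 ± 0.095 (0.294) and 0.028 ± 0.10 (0.894). Across arrays 1393798_at and 1389989_at had an r of 0.89, and of 0.54 around their region and group means.

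Ankrd11 had 3 probe sets, all higher in the dependent dlBNST: 1382620_at, the one used, at 0.90 ± 0.15, 1381809_at at 0.82 ± 0.23 and 1391838_at at 1.36 ± 0.33. Over 7 regions none of the 3 passed, with adjusted p of 0.0548, 0.0648 and 0.781 for differences of 0.21 ± 0.070, 0.32 ± 0.11 and 0.074 ± 0.13. The other Mon2 probe set (1394391_at) gave 0.24 ± 0.12 in the dlBNST, against 0.76 ± 0.13 for the one used. Across the 92 arrays these Mon2 probe sets had a Pearson r of -0.39, and of 0.39 around their region and group means. The levels of Mon2 across regions, and the genes most like it, are thus those of the probe set used. The other Rasgrp2 probe set (1374649_at) had a mean of 3.90 over the 92 arrays, the other Icoslg probe set (1374723_at) 2.68, and Stk32c has 1 probe set only. The mean over both Rasgrp2 probe sets gave -0.53 in the dlBNST.

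**Figure D4:**
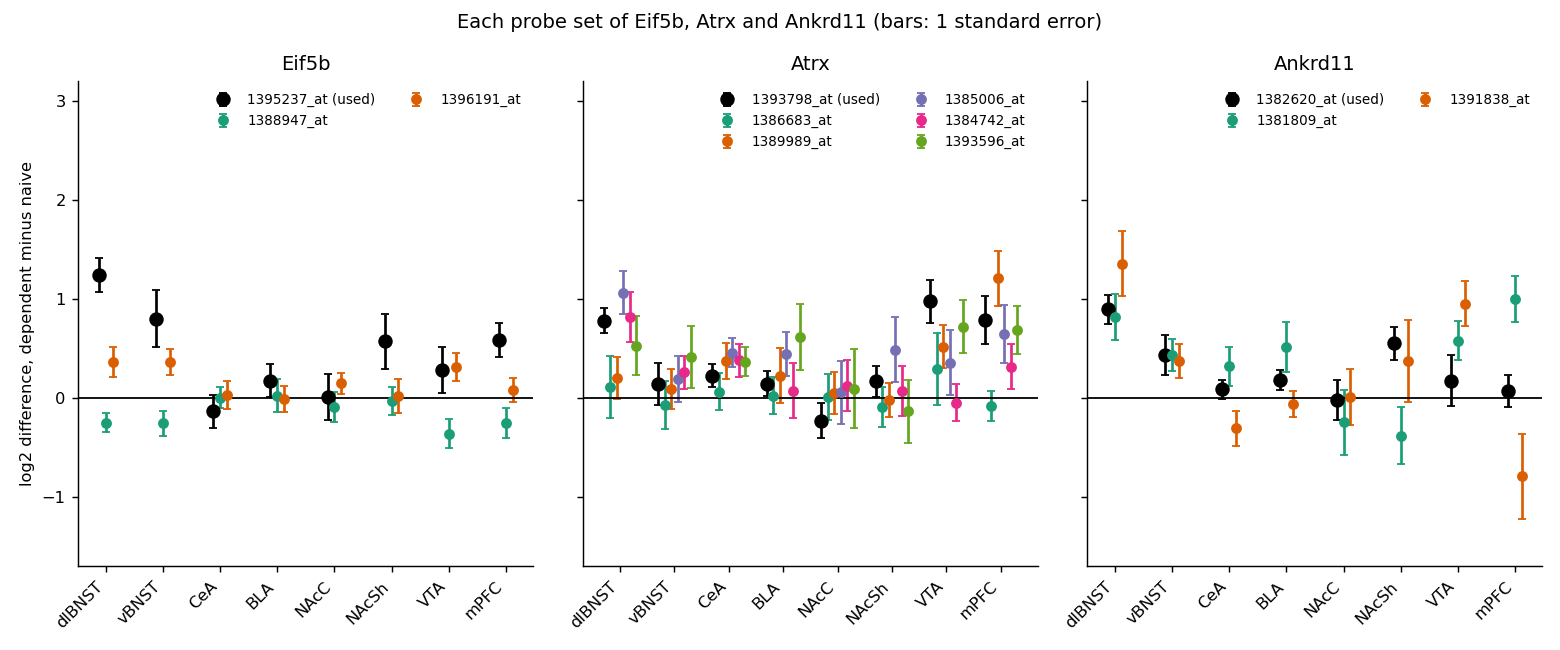
Dependent minus naive difference in log2 signal for each probe set of Eif5b, Atrx and Ankrd11 in the 8 regions, with bars of 1 standard error. In the dlBNST the 3 Eif5b probe sets lie on both sides of 0, while the 6 of Atrx and the 3 of Ankrd11 all lie above it.

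The level of the genes across regions was described in naive rats. Values of one gene can be compared between regions, but not with those of another gene, since probe sets differ in brightness. Rasgrp2 varied most, from 8.20 ± 0.34 in the NAcC (SD, n = 4) to 4.66 ± 0.27 in the BLA, with 7.27 ± 0.050 in the dlBNST. In its order the NAcC stood above the NAcSh by 1.59 ± 0.23 (adjusted p = 2.64e-05), the mPFC above the VTA by 0.80 ± 0.23 (adjusted p = 0.00246) and the VTA above the BLA by 0.63 ± 0.23 (adjusted p = 0.0219), while the neighbours NAcSh (6.62 ± 0.53), vBNST (6.34 ± 0.29), CeA (6.10 ± 0.18) and mPFC (6.08 ± 0.19) did not differ past the threshold.

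Atrx, Stk32c and Ankrd11 were lowest in the VTA and highest in the NAcC. Atrx averaged 10.83 ± 0.33 in the NAcC, 10.73 ± 0.22 in the BLA, 10.52 ± 0.14 in the NAcSh, 9.92 ± 0.13 in the CeA, 9.61 ± 0.57 in the mPFC, 9.35 ± 0.33 in the vBNST and 8.25 ± 0.33 in the VTA. Only the steps NAcSh over CeA, 0.60 ± 0.22 (adjusted p = 0.0337), and vBNST over VTA, 1.10 ± 0.22 (adjusted p = 0.000200), passed among these neighbours. The VTA, the region of the largest Atrx difference, was thus also that of its lowest level. Stk32c ran from 10.03 ± 0.35 in the NAcC to 7.59 ± 0.32 in the VTA, with passing steps from CeA to vBNST, 0.51 ± 0.19 (adjusted p = 0.0328), and vBNST to VTA, 1.36 ± 0.19 (adjusted p = 2.10e-06). Ankrd11 ran from 8.59 ± 0.42 in the NAcC to 6.73 ± 0.58 in the VTA, with passing steps at the same pairs, 0.60 ± 0.22 (adjusted p = 0.0299) and 0.62 ± 0.22 (adjusted p = 0.0221).

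Eif5b ran from 9.68 ± 0.18 in the CeA to 8.27 ± 0.31 in the vBNST and Icoslg from 5.43 ± 0.57 in the mPFC to 4.09 ± 0.080 in the NAcSh, and for both genes no pair of neighbours differed past the threshold. The naive dlBNST, whose arrays entered the choice of the genes, averaged 5.63 ± 0.22 for Icoslg and 5.15 ± 0.12 for Mon2. Over the 7 regions Mon2, on the probe set used, was the most even of the members, from 5.80 ± 0.10 in the mPFC to 5.17 ± 0.41 in the VTA. It was the only member whose level did not pass limma's F-test over the 7 regions (adjusted p = 0.108), a test that 95.9% of 8801 genes passed. The range of region means was 0.63 for Mon2 and 3.54 for Rasgrp2, against a median of 1.33 over all genes.

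**Figure D5:**
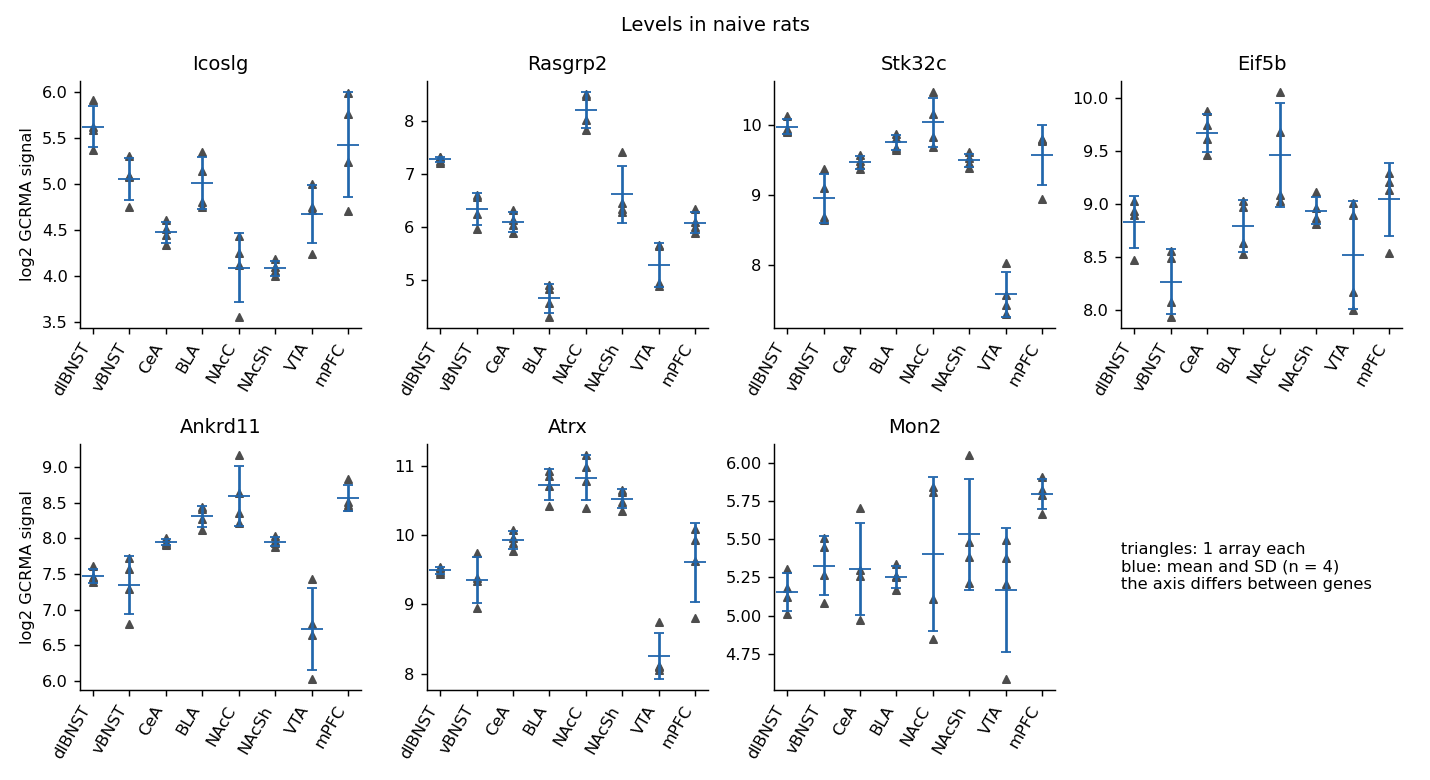
Log2 signal of the 7 genes in naive rats by region, with 1 point per array, a line at the mean and bars of 1 SD (n = 4), and a separate axis for each gene. Rasgrp2 spans the widest range, from the NAcC to the BLA, and Mon2 the narrowest.

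Other genes of the same pathways were counted in the fit over 7 regions, dependent against naive, where 2.12% of all genes rose and 3.86% fell. For Eif5b the list held translation initiation factors and related genes. Of its 40 genes tested the median difference was -0.058, and 0 rose and 7 fell. Those with the lowest p were Eif2s3, a subunit of the factor that brings initiator tRNA, at -0.18 ± 0.043 (adjusted p = 0.00573), Eif4g2, a scaffold factor, at -0.13 ± 0.031 (0.00811), Eif1ad at -0.17 ± 0.049 (0.0264) and Eif2b5, of the exchange factor of eIF2, at -0.20 ± 0.061 (0.0349). Eif1ax and Eif1a, genes of the factor that binds Eif5b at the ribosome, were at -0.080 ± 0.047 (adjusted p = 0.308) and -0.050 ± 0.066 (0.698). The rise of Eif5b itself is that of the probe set used. Over the same regions its probe set 1396191_at was higher and 1388947_at lower, as given above.

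Among the 22 SNF2-family genes and ATRX partners tested, 4 rose and 0 fell, with a median of 0.063. They were Chd7 at 0.34 ± 0.070 (adjusted p = 0.00186) and Smarca4 (BRG1) at 0.23 ± 0.068 (0.0326), both remodelers, Cbx1, a heterochromatin protein, at 0.29 ± 0.087 (0.0330), and Btaf1, which removes TATA-binding protein from DNA, at 0.19 ± 0.059 (0.0401). Smarca5 (ISWI) was at 0.12 ± 0.054 (0.186), and Daxx, the partner of Atrx, had a mean of 3.70 and was below the filter. Chd7 also rose in non-dependent over naive rats, by 0.28 ± 0.072 (0.0301).

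The list around Ankrd11, here the HDAC3 group, held corepressor genes and also its paralog Ankrd12 and nuclear receptor coactivators. Of its 14 genes tested, 2 rose and 0 fell, and the 2 were not corepressor genes. They were Ankrd12 at 0.33 ± 0.11 (adjusted p = 0.0465) and the receptor coactivator Ncoa4 at 0.21 ± 0.041 (0.000488). Ncoa4 rose in non-dependent over naive rats too, by 0.25 ± 0.042 (0.000102). Hdac3 was at -0.11 ± 0.068 (0.321). Of 24 AGC kinases tested beside Stk32c, 3 rose and 0 fell, namely Rps6ka5 (MSK1), which phosphorylates CREB and histone H3, at 0.46 ± 0.11 (0.00463), Prkce (PKC epsilon) at 0.29 ± 0.077 (0.0171) and Prkg2 at 0.16 ± 0.050 (0.0470). Of 25 genes of endosome to Golgi traffic, 2 rose, the ARF exchange factor Gbf1 at 0.33 ± 0.071 (0.00209) and the retromer subunit Vps26a at 0.31 ± 0.080 (0.0115), and 1 fell, the sorting nexin Snx1 at -0.14 ± 0.045 (0.0424). Arl1 and Atp9a, whose relatives act with Mon2 in other species, were at -0.015 ± 0.039 (0.847) and -0.046 ± 0.081 (0.775).

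None of 15 Rap signaling genes tested passed in either direction, with a median of -0.021 (limma). Among the relatives of Rasgrp2, Rasgrp1 was at 0.055 ± 0.11 (adjusted p = 0.800), Rasgrp3 at -0.053 ± 0.11 (0.807) and the Rap GTPase-activating gene Rap1gap at 0.041 ± 0.079 (0.798). Of the 15 B7 and CD28 family genes listed, 11 were on the array and 0 passed the filter, so Icoslg stands alone there, with Icos, its receptor, at a mean of 3.23 and Cd276 at 3.09. In the dlBNST 0 genes of these lists were called besides the members, and the medians were -0.062 for translation initiation, 0.091 for the SNF2 group, 0.15 for the HDAC3 group, 0.12 for AGC kinases, 0.13 for Rap signaling and -0.084 for endosome to Golgi traffic, against -0.045 over all genes.

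The members varied together to differing degrees. Around their region and group means, Eif5b and Ankrd11 had the highest Pearson r of the 21 pairs, 0.47 over 92 arrays, and Rasgrp2 and Mon2 the lowest, -0.33. Over the 24 region and group means, Ankrd11 and Atrx reached 0.84, Stk32c and Ankrd11 0.79 and Stk32c and Atrx 0.78, while Icoslg and Eif5b stood at -0.40. Around their region and group means the same pairs, in that order, had an r of 0.049, 0.13, 0.28 and -0.30. The 24 means hold the differences in level between regions, and those of the dlBNST that chose the genes. Arrays share regions and rats, so these values are descriptions. Spread within a region and group was wider for each of the 7 than the median gene, from an SD of 0.26 (Ankrd11) to 0.40 (Rasgrp2), against 0.23.

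The 24 means also gave the genes most like each member among 8762. Atrx was most like Ankrd45 (r = 0.95) and Plppr4 (0.94), Stk32c like Rprml (0.95) and Ppp3cb, a calcineurin subunit (0.94), and Ankrd11 like the kinase genes Plk2 (0.94) and Dclk1 (0.94). Rasgrp2 was most like Adissp (0.90) and Pcp4, a calmodulin-binding protein (0.89), and Mon2 like Taf9b (0.89) and the sodium pump subunit Atp1b1 (0.87). Eif5b and Icoslg had the weakest leading likeness, with Cep164 (0.84) and Ccdc66 (0.77) for Eif5b and Ubqln1 (0.84) and Smoc1 (0.84) for Icoslg. Around the region and group means, the 3' minus 5' control difference had an r with the members between -0.25 (Rasgrp2) and 0.30 (Icoslg), and -0.057 with Atrx and -0.029 with Eif5b.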

How the data were processed

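Affymetrix rat expression arrays were used on RNA of 8 brain regions in 3 groups with 4 arrays each. The authors deposited log2 signals from GCRMA 2.36.0, run in R 3.03 per the labels, and they were taken with no further scaling. Probe sets were named from the annotation of the array, of 31099 probe sets 20832 naming 1 gene, 436 several and 9831 none, and those naming several genes or none were not used. Where several probe sets named a gene, the one with the highest mean log2 signal over 92 arrays stood for it, and genes with a mean log2 signal above 4 over the arrays of a fit were tested. The arrays have no read depth, so precision is limited by their number.

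Groups were compared with limma 3.58.1 in R 4.3.3 (with data.table, 1.17.8), with 1 fit per region on its 3 groups, 1 additive fit of region and group over 80 arrays of the 7 regions other than the dlBNST, an interaction fit and a fit of naive levels. P-values were adjusted by Benjamini-Hochberg over all genes of a fit at a threshold of 0.05, and intervals are 95%. The p-values measure the spread between arrays, which the study assigns to 4 rats per group, and arrays of 1 rat from several regions were taken as independent. The dlBNST contrasts were given without a test. Sequences were read with Python 3.11.15 and pandas 2.3.3, and figures were drawn with matplotlib 3.10.9. No column of sample values was left unmapped.

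The members, gene lists and left-out arrays were chosen with earlier results of these data known. Named genes were the 7 members, the 2 genes most like each over 24 region and group means, fixed partner genes, genes of the pathway lists past the threshold over 7 regions (at most 4 per list and direction, by p), and genes next to the threshold in the dlBNST.

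The fits were also run on simulated data with known changes and independent noise in each array, so shared rats were not simulated. In the dlBNST setting, 21 of 66 log2 changes of 0.5 and 63 of 76 of 1 were called. Over 7 regions 69 of 70 changes of 0.5 were called. Of genes with no change, 11 of 8523 were called in the dlBNST setting and 8 of 8571 over 7 regions. Changes were put only in genes with a mean clearly above the filter, which over 7 regions leaves out Icoslg. Each change was the same in all 7 regions, unlike the Atrx difference, so these shares need not hold for the members. Arrays with the same replicate number in different groups of a region had a mean correlation of -0.0034 around group means (-0.37 to 0.46), so the numbers were not taken to pair arrays. Alternatives tried were all 96 arrays, median scaling, quantile normalization, no filter and a filter above 6, the mean of all probe sets of a gene, array weights, the 3' minus 5' control difference as a covariate, only the 2 groups compared, fixed and random replicate blocks, and leaving out replicates, single arrays and regions. Leaving out single arrays over 7 regions, replicates in the interaction fit, or the VTA and mPFC together, and the use of other probe sets or of their mean in the interaction fit, were chosen after the data were seen.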

Additional observations from a re-analysis of the deposited data

Results flagged for a closer look

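In 10 of 140 sets of 4 arrays of a gene, region and group, 1 array stood far from the other 3, and chance alone gives such a gap in about 1 set of every 20. The Ankrd11 signal of dependent replicate 1 in the dlBNST was 8.03, below the other dependent arrays and above all naive ones. Stk32c stood at 8.80 in dependent replicate 2 of the VTA and at 8.93 in naive replicate 4 of the mPFC. Rasgrp2 stood at 7.41 in naive replicate 1 of the NAcSh. Without that array the dependent minus naive difference of Rasgrp2 in the NAcSh was 0.0068. With it the dependent and naive means were 6.36 and 6.62. For Atrx the arrays were dependent replicate 4 of the CeA (9.82), dependent replicate 3 of the BLA (10.76), non-dependent replicate 2 of the NAcSh (11.22) and naive replicate 3 of the VTA (8.75). For Mon2 they were dependent replicate 2 of the NAcC (6.36) and non-dependent replicate 1 of the NAcSh (5.13).

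The dependent minus naive difference of Atrx varied among the 7 regions other than the dlBNST (limma F-test of the interaction, adjusted p = 0.0395), with means 0.98 higher in dependent rats in the VTA, 0.78 higher in the mPFC and a difference of -0.23 in the NAcC.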

How the results depend on the processing

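Over all alternatives, 3290 values kept their direction and their side of the threshold, 77 changed sign, 67 no longer passed, 9 newly passed and 173 moved by more than the spread. Most that changed sign lay near 0, none of them past the threshold, and the cause was not tested. With all 96 arrays, the dependent minus naive difference in the vBNST was -0.39 for Atrx and -0.30 for Stk32c. Over 7 regions Stk32c then stood at -0.0070, and 0 members passed in the additive or the interaction fit. For non-dependent minus naive rats over 7 regions, these arrays gave -0.22 for Atrx and -0.18 for Stk32c, and for dependent minus non-dependent rats 0.17 for Stk32c. Quantile normalization left 0 members in the interaction fit. Median scaling moved Stk32c in the vBNST to -0.030. With no filter 1 member passed over 7 regions. The mean of the probe sets left 1 over 7 regions and 0 in the interaction fit, and gave 0.035 for Mon2 in the vBNST, -0.011 for Rasgrp2 in the CeA and 0.018 for Atrx in the NAcC.

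With array weights, Mon2 stood at 0.010 in the vBNST, -0.041 in the CeA and -0.0099 over 7 regions, Ankrd11 at 0.14 in the NAcC and -0.0015 in the VTA, and 1 member passed between dependent and non-dependent rats in the VTA. With the 3' minus 5' difference as a covariate, the vBNST gave -0.046 for Atrx, 0.040 for Icoslg and -0.28 for Stk32c. It gave 0.012 for Ankrd11 in the NAcC, -0.0038 and 0.031 for Icoslg and Rasgrp2 in the NAcSh, and 0.035 for Icoslg between dependent and non-dependent rats over 7 regions. With the replicate block, Mon2 and Stk32c in the vBNST stood at 0.014 and -0.030. Over 7 regions the replicate block gave 0.32 for Atrx (adjusted p = 0.0162) and 0.32 for Eif5b (adjusted p = 0.0453), so both calls held, as they did with a random block by group and number (adjusted p = 0.0149 and 0.0398). Same-numbered arrays of a group in different regions had a mean correlation of 0.011 around region and group means, against -0.0037 for other numbers. Such values do not decide whether the numbers follow rats, which the labels do not give. Neither block can therefore be said to account for arrays that share a rat.

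Without 1 region, the members called over 7 regions were 1 without the vBNST, 1 without the BLA, 1 without the NAcSh, 0 without the VTA, 0 without the mPFC and 0 without both of the last pair. Without the vBNST, Icoslg stood at 0.022 between dependent and non-dependent rats. Without the NAcC, Mon2 stood at -0.0039 for dependent minus naive, 0.0024 for non-dependent minus naive and -0.0063 for dependent minus non-dependent rats. Without the NAcSh, dependent minus non-dependent values were -0.0079 for Ankrd11 and 0.047 for Stk32c. Stk32c stood at -0.059 without the VTA, -0.011 without the mPFC and -0.14 without both, and Mon2 at -0.034 without the mPFC and -0.013 without both. Icoslg was then 0.00070 for non-dependent minus naive rats.

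Without each replicate in turn, dependent minus naive differences ranged over -0.15 to 0.066 for Mon2 and -0.18 to 0.15 for Stk32c in the vBNST, -0.080 to 0.16 and -0.23 to 0.13 for the same genes in the CeA, and -0.033 to 0.10 for Stk32c in the BLA. In the NAcC they ranged over -0.15 to 0.17 for Ankrd11, -0.16 to 0.21 for Eif5b, -0.18 to 0.25 for Mon2 and -0.19 to 0.066 for Stk32c. In the NAcSh the ranges were -0.21 to 0.066 for Mon2 and -0.58 to 0.0068 for Rasgrp2, in the VTA -0.059 to 0.41 for Ankrd11, and in the mPFC -0.024 to 0.17 for Ankrd11 and -0.30 to 0.055 for Rasgrp2, with 0 to 1 members called, the 1 being Eif5b without dependent replicate 3 (adjusted p = 0.0367). Over 7 regions they were -0.020 to 0.043 for Mon2, -0.15 to 0.027 for Rasgrp2 and -0.014 to 0.10 for Stk32c, with 0 members called without naive replicate 4 and 3 without dependent replicate 2 of the NAcC. Non-dependent minus naive, Mon2 ranged over -0.049 to 0.021. Dependent minus non-dependent, the ranges were -0.015 to 0.092 for Ankrd11, -0.095 to 0.081 for Icoslg and -0.011 to 0.065 for Mon2. The interaction fit called 0 to 1 members.

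Counts over all genes moved more. For dependent against naive rats over 7 regions limma called 524 genes, against 16 with all 96 arrays, 239 without the vBNST, 297 without the mPFC and 218 without VTA and mPFC. For non-dependent against naive rats the count was 86, with 20 from 96 arrays, 50 with the filter above 6, 175 with array weights, 211 with the 3' minus 5' covariate and 17 without VTA and mPFC. Between dependent and non-dependent rats it was 19, with 4 from 96 arrays and 40 with array weights. In the mPFC, dependent against naive, 5 genes were called, 33 with the replicate block and 249 with array weights, and 0 members in the fit with the replicate block. Without 1 replicate the mPFC counts ran 0 to 602 for dependent against naive and 0 to 271 for non-dependent against naive rats, each highest without dependent replicate 3. With 3 or 4 arrays per group and region, precision is limited by their number.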
